A study of Mus musculus with 43 samples.

Results

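The genes described here are those whose RNA moved in the same direction after a 24-hour fast in 4 laser-captured hypothalamic nuclei of the mouse, the arcuate (ARC), dorsomedial (DMH), paraventricular (PVN) and ventromedial (VMH). All mice, the ad libitum fed controls included, were males labelled as strain C57/BL6 (a C57BL/6J background by the study's methods) with a congenital paternal deletion of the Snord116 cluster (line B6(Cg)-Snord116tm1.1Uta/J), a group of imprinted small nucleolar RNA genes of the Prader-Willi region, and no wild-type library was analysed here. RNA sequencing libraries from 6 fasted and 6 fed mice were compared, 41 of the 43 samples of the series, in 3 batches of 2 fasted and 2 fed mice. The ARC had 4 fasted and 5 fed libraries, the DMH 5 and 6, the PVN 5 and 5 and the VMH 6 and 5, and the mice Fast-85 and Fed-92 of batch 1 gave 1 library each. In captured tissue, fewer cells of a type and less RNA per cell cannot be told apart.

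The mouse was the unit of the comparison. For each gene, log2(CPM + 0.5) was centred on the mean of its nucleus (CPM, counts scaled to the size of the library) and averaged over the nuclei of a mouse. A mouse value of 0 is thus the average level, and a difference of 1 between states is a doubling. Of 9610 genes tested, 24 (0.25%) passed an adjusted p under 0.1 in limma with batch as a term, and 913 had an unadjusted p under 0.05. Among the 24, 11 were higher in fasted mice (0.114% of genes tested) and 13 were lower (0.135%). The direction was equal in the 4 nuclei for 23 of the 24, the genes of interest here, against 20.1% of all genes tested. The nuclei make up the mouse mean, so that share describes the genes and tests nothing.

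Fasting is known to lower leptin and insulin, to raise glucocorticoids and, in mice, to lower body temperature. Several groups of transcripts are known to follow such signals in many cell types. Heat-shock proteins, which refold damaged proteins, are made when cells warm, and cold-inducible RNA-binding proteins when cells cool. Enzymes of cholesterol synthesis are transcribed when membrane sterol is low, and metallothioneins when metals or glucocorticoids rise. Body temperature, hormones and metabolites of these mice were not analysed here.

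Hsph1, which encodes a large heat-shock protein that works with Hsp70 chaperones, had the smallest p and fell by 0.70 in fasted mice on the log2 scale (SE 0.06, 6 against 6 mice, adjusted p = 6.31e-06). Cirbp, which encodes the cold-inducible RNA-binding protein, rose by 0.82 (SE 0.12, adjusted p = 0.00917). Other genes that fell encode the chaperonin subunit Cct7, RNA-binding proteins (Hnrnpc, Tardbp, Qk), lipid enzymes (Hmgcs1, Scd1, Etnk1) and transporters (Slc5a3, Slc25a37). Others that rose encode metal and redox proteins (Mt2, Srxn1, Selenop), the neuropeptide precursor Vgf and a second cold-inducible protein, Rbm3.

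**Figure D1:**
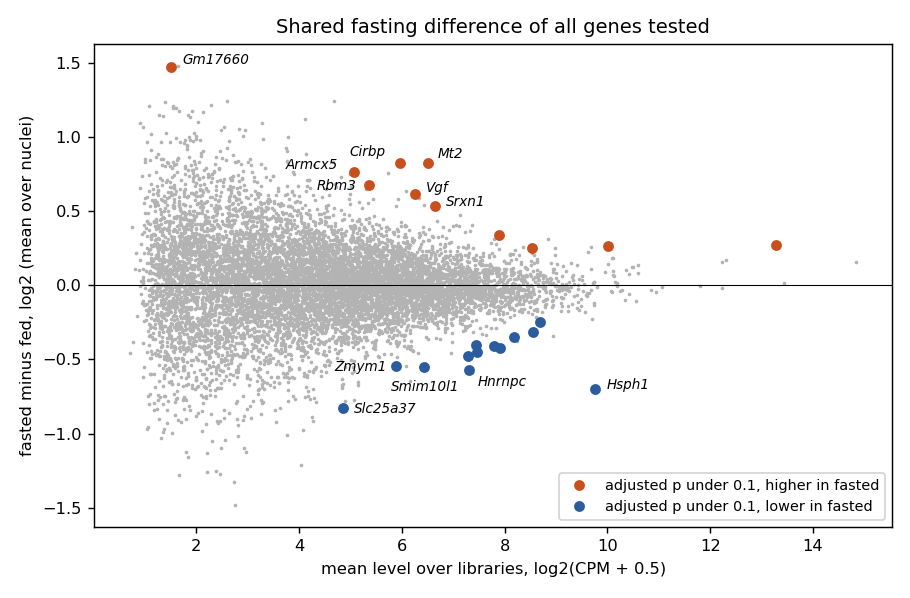
Fasted minus fed difference, mean over nuclei on the log2 scale (y axis), against the mean level over libraries as log2(CPM + 0.5) (x axis) for the 9610 genes tested. Grey points are genes that did not pass, and orange and blue points are the 11 genes that were higher and the 13 that were lower at an adjusted p under 0.1.

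The sequence upstream of Hsph1 and of Hmgcs1, an enzyme of cholesterol synthesis, is shown because each holds a motif of the response its gene is known for. Both are from RefSeq (GRCm38.p6), run 5′ to 3′ on the strand of the gene and end at the base before an annotated start. The first lies at chr5:149636337-149636586 on the minus strand and the second at chr13:119690101-119690350 on the plus strand. Capitals mark TTCNNGAA, a pair of heat-shock element units, which begins 33 bases before this start of Hsph1, and TCACNCCAC, the sterol regulatory motif, which begins 137 bases before the start of Hmgcs1.
Hsph1: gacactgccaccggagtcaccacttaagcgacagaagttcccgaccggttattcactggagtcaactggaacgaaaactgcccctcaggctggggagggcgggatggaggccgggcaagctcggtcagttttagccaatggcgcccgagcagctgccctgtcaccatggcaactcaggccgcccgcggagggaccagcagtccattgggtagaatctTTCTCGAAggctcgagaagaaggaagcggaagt
Hmgcs1: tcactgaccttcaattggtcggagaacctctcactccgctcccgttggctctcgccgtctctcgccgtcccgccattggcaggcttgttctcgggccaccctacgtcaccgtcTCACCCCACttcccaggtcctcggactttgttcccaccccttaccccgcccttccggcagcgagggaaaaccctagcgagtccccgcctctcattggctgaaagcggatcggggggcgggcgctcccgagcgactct

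Windows of 250 bases before to 50 after a start were matched by symbol for 16 of the 22 genes described in full here, and 5 motifs were searched on both strands. TTCNNGAA occurred in 8.52% of all 32851 windows and GAANNTTC, the same pair in the other order, in 7.86%, and each was found for 1 of the 16 genes, Hsph1, where 2 of the matches lie after the start and overlap. TCACNCCAC occurred in 1.24% of windows and for 1 gene, Hmgcs1. GTAAACA, the FoxO motif, occurred in 3.65% and for 1 gene, Selenop, 24 bases before one of its starts. ACANNNTGT, the core of a glucocorticoid response element, occurred in 6.85% and for 0 of the 16. These are matches of letters, and binding was not measured.

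Hsph1 lies on chromosome 5 (149614287 to 149636376, minus strand), in GRCm38 as for the genes that follow. In the ARC its CPM was 615, 679.8, 721 and 892 in the fasted mice and 1084, 1099, 1145, 1200.0 and 1533 in the fed mice. In the DMH it was 302, 506, 537, 549 and 565 in the fasted mice, and the 6 fed mice ran from 749 to 989 with a median of 789.8. The states did not overlap in either nucleus. In the PVN CPM was 548, 569, 576, 665 and 678 in fasted and 889, 909, 975, 978 and 993 in fed mice. In the VMH the 6 fasted mice ran from 739 to 988 with a median of 842 and the fed mice gave 1153, 1264, 1377, 1392 and 1474. The states were separate there too, and Hsph1 was the 1 gene of the 22 with separate states in each of the 4 nuclei. Mouse values were -0.65 to -0.16 (median -0.35) in fasted and 0.22 to 0.52 (median 0.30) in fed mice. The log2 difference was -0.71, -0.82, -0.65 and -0.63 in the ARC, DMH, PVN and VMH, and each passed limma's test in its own nucleus (adjusted p = 0.00532, 0.00357, 0.00204 and 7.71e-05). With any 1 mouse left out the gene still passed, with an adjusted p of at most 9.28e-05.

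Cct7 encodes a subunit of TRiC, the ring complex that folds actin and tubulin, and lies on chromosome 6 (85451514 to 85468475, plus strand). Its mouse values were -0.41 to -0.08 (median -0.16) in fasted and -0.01 to 0.41 (median 0.19) in fed mice and did not overlap. The difference was -0.41 (SE 0.07, adjusted p = 0.0280). In the ARC CPM was 191 ± 18.1 (SD, n = 4) in fasted and 322 ± 58.1 (SD, n = 5) in fed mice, and in the VMH 170.4 ± 16.1 (SD, n = 6) and 241 ± 53.9 (SD, n = 5). The libraries of the states did not overlap in these nuclei and did in the DMH and the PVN.

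The heat-shock list, with 18 of its 49 genes tested, had 1 that fell (Hsph1), 0 that rose and 17 that did not pass. Its median log2 difference was -0.09, against 0.01 for all genes tested, and 13 members were lower in fasted mice. Of 6 tested genes of TRiC and prefoldin, 1 fell (Cct7), and 6 of 6 had a negative difference, with a median of -0.16. Members that did not pass include Hspa1a, an inducible Hsp70 (-0.89, adjusted p = 0.328), the small heat-shock protein gene Cryab (-0.51, adjusted p = 0.380), the Hsp90 co-chaperones Fkbp4 (-0.27, adjusted p = 0.292) and Ptges3 (-0.29, adjusted p = 0.245), and the chaperonin subunit Cct6a (-0.28, adjusted p = 0.302). Hspa1a has a near-identical copy, Hspa1b, and its reads may be split between them. Of 25 listed endoplasmic reticulum chaperone and unfolded protein genes, 5 were tested and 0 passed (0 at an unadjusted p under 0.05). The smallest p values were those of Hyou1 (0.04, adjusted p = 0.920) and Herpud1 (0.05, adjusted p = 0.958). Most of that list was thus not examined.

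Cirbp lies on chromosome 10 (80165985 to 80172786, plus strand). In the DMH its CPM was 66.5, 71.3, 74.9, 91.2 and 102 in the fasted mice, and the 6 fed mice ran from 27.8 to 65.3 with a median of 51.5. In the ARC the fasted mice gave 68.4, 89.1, 94.6 and 97.0 and the fed mice 48.9, 49.8, 51.1, 56.8 and 75.0. The states were separate in the DMH and overlapped in the ARC. In the PVN the fasted mice gave 36.5, 71.4, 72.6, 77.0 and 81.5, the lowest of them Fast-86, and the fed mice 23.4, 37.1, 38.8, 51.1 and 51.6. In the VMH the 6 fasted mice ran from 61.7 to 78.9 with a median of 69.5 and the fed mice gave 23.3, 25.9, 36.0, 49.8 and 81.0. The states overlapped in these nuclei as well. Averaged over nuclei they did not, with 0.28 to 0.51 (median 0.37) in fasted and -1.12 to -0.11 (median -0.32) in fed mice, the lowest fed value being that of Fed-92, which gave 1 library.

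Rbm3, on chromosome X (8138975 to 8145880, minus strand), encodes a related RNA-binding protein of cooled cells. In the ARC its CPM was 48.7, 49.4, 55.3 and 59.0 in fasted and 20.2, 27.8, 29.7, 29.9 and 36.5 in fed mice. In the VMH the 6 fasted mice ran from 45.5 to 79.0 with a median of 55.1 and the fed mice gave 20.3, 20.4, 27.0, 27.7 and 38.7. The states were separate in these nuclei and overlapped in the DMH (46.2 ± 13.1 (SD, n = 5) in fasted and 33.4 ± 8.15 (SD, n = 6) in fed mice) and the PVN (44.7 ± 5.59 (SD, n = 5) and 32.6 ± 15.1 (SD, n = 5)). The difference was 0.68 (SE 0.14, adjusted p = 0.0672), and after quantile normalization of the libraries the adjusted p of limma was 0.102. Of 3 tested cold-inducible RNA-binding genes 2 rose, and Rbm5 did not pass (0.05, adjusted p = 0.872).

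**Figure D2:**
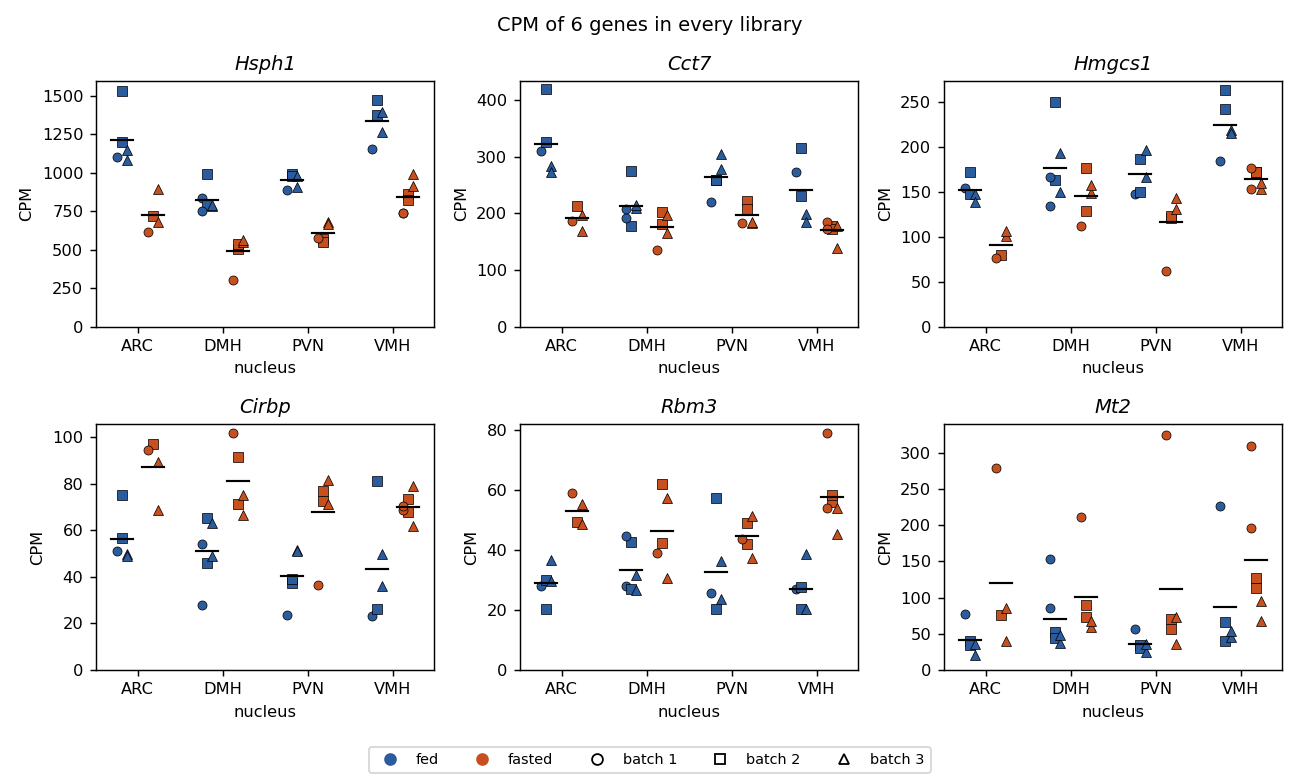
CPM (y axis, from 0) of 6 genes in every library, by nucleus (x axis). Blue marks are fed and orange marks fasted mice, the shape gives the batch and the black bar is the group mean; Hsph1 has separate states in each of the 4 nuclei.

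Hnrnpc encodes a core protein of the particles that package nascent transcripts and lies on chromosome 14 (52073377 to 52104028, minus strand). Its mouse values were -0.85 to -0.05 (median -0.27) in fasted and -0.33 to 0.62 (median 0.33) in fed mice, which overlap over all batches. Within each batch both fasted mice lay below both fed mice, with differences of -0.49, -0.66 and -0.56 in batches 1, 2 and 3. The fit gave -0.57 (SE 0.08, adjusted p = 0.00917). In the PVN the fasted mice gave 100.6, 126.9, 131, 136 and 146 CPM and the fed mice 147, 182, 196, 231 and 234, without overlap.

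Tardbp encodes TDP-43, an RNA-binding protein that represses cryptic exons, and lies on chromosome 4 (148612382 to 148627019, minus strand). Its difference was -0.42 (SE 0.07, adjusted p = 0.0280), with -0.55, -0.39 and -0.33 in the 3 batches. Masp2, on the other strand, shares 23.3% of its exonic bases, and whether the counting used strand is not given in the sources used here. Qk, on chromosome 17 (10202601 to 10319854, minus strand), encodes the splicing factor quaking and differed by -0.31 (SE 0.06, adjusted p = 0.0672), from -0.23 in the VMH to -0.41 in the PVN. Of 24 tested splicing factor and hnRNP genes, 1 fell (Hnrnpc), 0 rose and 17 had a negative difference, with a median of -0.05. Members that did not pass include Tra2a (-0.54, adjusted p = 0.221), Hnrnpm (-0.32, adjusted p = 0.292) and Hnrnpu (-0.18, adjusted p = 0.292). Of 6 members at an unadjusted p under 0.05, 5 were lower and 1 was higher, Hnrnpdl (0.19, adjusted p = 0.405).

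Hmgcs1 encodes the cytosolic enzyme that makes HMG-CoA and lies on chromosome 13 (119690379 to 119708260, plus strand). In the ARC its CPM was 76.3, 79.8, 100.98 and 106 in fasted and 138, 147, 148, 154 and 171 in fed mice. In the PVN the fasted mice gave 61.8, 120.2, 123.3, 131 and 143 and the fed mice 147, 150.0, 166, 186 and 196. In the VMH the 6 fasted mice ran from 153 to 177 with a median of 166 and the fed mice gave 184, 215, 219, 241 and 263. The states did not overlap in these nuclei and overlapped in the DMH, where CPM was 145 ± 25.3 (SD, n = 5) in fasted and 176 ± 41.3 (SD, n = 6) in fed mice. Mouse values were -0.60 to -0.09 (median -0.19) in fasted and 0.05 to 0.37 (median 0.24) in fed mice, and the difference was -0.48 (SE 0.07, adjusted p = 0.00917). The antisense gene Gm48342 shares 12.1% of its exonic bases.

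Of 16 tested genes of cholesterol synthesis and sterol regulation, 1 fell (Hmgcs1), 0 rose and 15 had a negative difference, with a median of -0.29 against 0.01 for all genes tested. Members that did not pass include Idi1, an isomerase of the isoprenoid path (-0.67, adjusted p = 0.127), the sterol sensor Insig1 (-0.41, adjusted p = 0.418) and the methylsterol oxidase Msmo1 (-0.32, adjusted p = 0.292).

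Scd1, the enzyme that desaturates newly made fatty acids, lies on chromosome 19 (44394455 to 44407879, minus strand). Mouse values were -0.49 to -0.02 (median -0.16) in fasted and 0.05 to 0.26 (median 0.21) in fed mice, without overlap, and the difference was -0.40 (SE 0.08, adjusted p = 0.0672). In the PVN CPM was 106 ± 17.5 (SD, n = 5) in fasted and 173 ± 50.8 (SD, n = 5) in fed mice, a log2 difference of -0.68 with separate states. In the VMH it was 183 ± 36.4 (SD, n = 6) and 199 ± 41.01 (SD, n = 5), a log2 difference of -0.06, within the spread of the libraries. The difference between nuclei did not pass its test (adjusted p = 0.933). Etnk1, an ethanolamine kinase of phospholipid synthesis on chromosome 6 (143167221 to 143232307, plus strand), differed by -0.25 (SE 0.05, adjusted p = 0.0784), with -0.23, -0.26 and -0.25 in the 3 batches. Of 15 tested genes of fat oxidation, ketone use and fuel switching, 1 fell (Scd1), 0 rose and the median was 0.02. The mitochondrial carrier Ucp2 (0.41, adjusted p = 0.163) and Pdk2, a kinase that restrains pyruvate oxidation (0.38, adjusted p = 0.292), did not pass.

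Slc5a3, on chromosome 16 (92058322 to 92087473, plus strand), encodes the transporter of myo-inositol, an osmolyte. Its difference was -0.45 (SE 0.07, adjusted p = 0.00917), with -0.41, -0.38 and -0.56 in the 3 batches. In the VMH CPM was 132 ± 35.1 (SD, n = 6) in fasted and 228 ± 60.9 (SD, n = 5) in fed mice, a log2 difference of -0.67, against -0.29 to -0.41 in the other nuclei. Without VMH libraries the adjusted p of limma was 0.131. Of the 2 tested genes of the osmotic list, Slc6a6, the taurine transporter gene, did not pass (0.01, adjusted p = 0.988).

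Slc25a37, on chromosome 14 (69241848 to 69285112, minus strand), encodes mitoferrin, which carries iron into mitochondria. In the ARC its CPM was 10.6, 10.9, 11.3 and 17.2 in fasted and 20.7, 26.0, 29.5, 31.9 and 60.1 in fed mice, without overlap. In the PVN it was 22.7 ± 9.14 (SD, n = 5) and 27.9 ± 12.9 (SD, n = 5), within the spread of the libraries. The difference over nuclei was -0.83 (SE 0.15, adjusted p = 0.0435), and without ARC libraries the adjusted p of limma was 0.187. Red blood cells carry much mitoferrin RNA, and haemoglobin genes summed to 2.21 to 67.4 CPM in fasted (median 13.5) and 4.33 to 36.8 CPM in fed libraries (median 12.6).

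Mt2 encodes a metallothionein that binds zinc and copper and lies on chromosome 8 (94172664 to 94173568, plus strand). The batches stood apart: mouse values were 2.02 and 1.00 in Fast-86 and Fast-85 and 1.07 and 0.50 in Fed-92 and Fed-111, all of batch 1. Fasted mice of the other batches ran from -0.48 to 0.34 and fed mice from -0.96 to -0.53. The difference was 0.73, 0.96 and 0.79 in the 3 batches, with overlap of the states in batch 1. The fit gave 0.83 (SE 0.16, adjusted p = 0.0628), and without Fast-86 it gave 0.70 (adjusted p = 0.173). The antisense gene Gm45774 covers 73.5% of the exonic bases of Mt2, and without strand the reads of the pair cannot be told apart.

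Of 14 tested glucocorticoid-responsive genes and receptors, 1 rose (Mt2), 0 fell and 11 had a positive difference, with a median of 0.32. Members that did not pass include the second metallothionein Mt1 (0.64, adjusted p = 0.145), the transcription factors Zbtb16 (1.12, adjusted p = 0.197) and Klf9 (0.40, adjusted p = 0.359), Tsc22d3, which encodes the glucocorticoid-induced leucine zipper (0.34, adjusted p = 0.328), and the sulphotransferase Sult1a1 (1.05, adjusted p = 0.372).

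Srxn1, on chromosome 2 (152105516 to 152111376, plus strand), encodes sulfiredoxin, which repairs oxidised peroxiredoxins. Its mouse values did not overlap, with -0.04 to 0.47 (median 0.33) in fasted and -0.58 to -0.11 (median -0.22) in fed mice, and the difference was 0.54 (SE 0.10, adjusted p = 0.0628). In the PVN CPM was 179 ± 72.6 (SD, n = 5) in fasted and 78.3 ± 26.8 (SD, n = 5) in fed mice, a log2 difference of 1.16, and in the VMH 83.5 ± 24.5 (SD, n = 6) and 72.5 ± 6.596 (SD, n = 5), a log2 difference of 0.17. Srxn1 was the 1 called gene with an unadjusted p under 0.05 for a difference between nuclei (adjusted p = 0.908), and without PVN libraries it missed the threshold (adjusted p = 0.310). Selenop, on chromosome 15 (3268547 to 3280508, plus strand), encodes the selenium carrier selenoprotein P and differed by 0.34 (SE 0.07, adjusted p = 0.0857), from 0.28 in the ARC to 0.43 in the PVN. Ccdc152, on the other strand, shares 15.4% of its exonic bases.

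Vgf, on chromosome 5 (137026392 to 137033351, plus strand), encodes a secreted precursor of peptides that act in energy balance. In the ARC its CPM was 76.7, 97.8, 114 and 155 in fasted and 36.9, 49.97, 63.6, 66.6 and 78.1 in fed mice. In the PVN the fasted mice gave 74.1, 105, 111.3, 132 and 383, the highest of them Fast-86, and the fed mice 42.3, 52.3, 68.6, 80.1 and 111.4. The states overlapped in both nuclei. In the VMH levels were lower, 32.4 ± 14.0 (SD, n = 6) and 27.8 ± 10.5 (SD, n = 5), within the spread of the libraries. The difference over nuclei was 0.62 (SE 0.12, adjusted p = 0.0628), with 0.65, 0.60 and 0.59 in the 3 batches. It missed the threshold without ARC libraries (adjusted p = 0.138) and without PVN libraries (adjusted p = 0.350), and without Fast-86 the difference was 0.63 (adjusted p = 0.116).

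Of 27 tested feeding peptides and receptors, 1 rose (Vgf), 0 fell and the median was -0.01. Npy, the orexigenic peptide of ARC neurons, stood at -0.01 over the mice (adjusted p = 0.999), with a log2 difference of 1.35 in the ARC and of 0.07 to 0.54 in the other nuclei, where its median was at most 3.00 CPM. In the fit of all libraries with the mouse as a block it was 0.54 (adjusted p = 0.372). The neuropeptide Y receptor gene Npy5r (-1.10, adjusted p = 0.342) and the enkephalin precursor Penk (0.28, adjusted p = 0.376) did not pass.

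Disp2, a relative of the Hedgehog-release protein Dispatched on chromosome 2 (118779719 to 118811293, plus strand), differed by 0.27 (SE 0.05, adjusted p = 0.0672). Cbarp, which encodes a regulator of voltage-gated calcium channels on chromosome 10 (80130451 to 80140835, minus strand), differed by 0.25 (SE 0.05, adjusted p = 0.0672), with 0.25, 0.24 and 0.26 in the 3 batches. Without Fast-86 both missed the threshold (adjusted p = 0.189 and 0.150). Fnbp1l, on chromosome 3 (122538719 to 122619715, minus strand), links membrane curvature to actin and differed by -0.35 (SE 0.07, adjusted p = 0.0628).

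Armcx5, an armadillo-repeat gene on chromosome X (135742733 to 135747322, plus strand), differed by 0.76 (SE 0.15, adjusted p = 0.0628), with 1.15, 0.81 and 0.32 in the 3 batches. Zmym1, a zinc-finger gene on chromosome 4 (127047094 to 127061152, minus strand), differed by -0.54 (SE 0.11, adjusted p = 0.0672) with mouse values that did not overlap, and Gm12940 on the other strand shares 41.04% of its exonic bases. Smim10l1, which encodes a small membrane protein on chromosome 6 (133104909 to 133110899, plus strand), differed by -0.55 (SE 0.09, adjusted p = 0.0165), from -0.17 in the DMH to -0.89 in the PVN. Without PVN libraries it missed the threshold (adjusted p = 0.275).

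**Figure D3:**
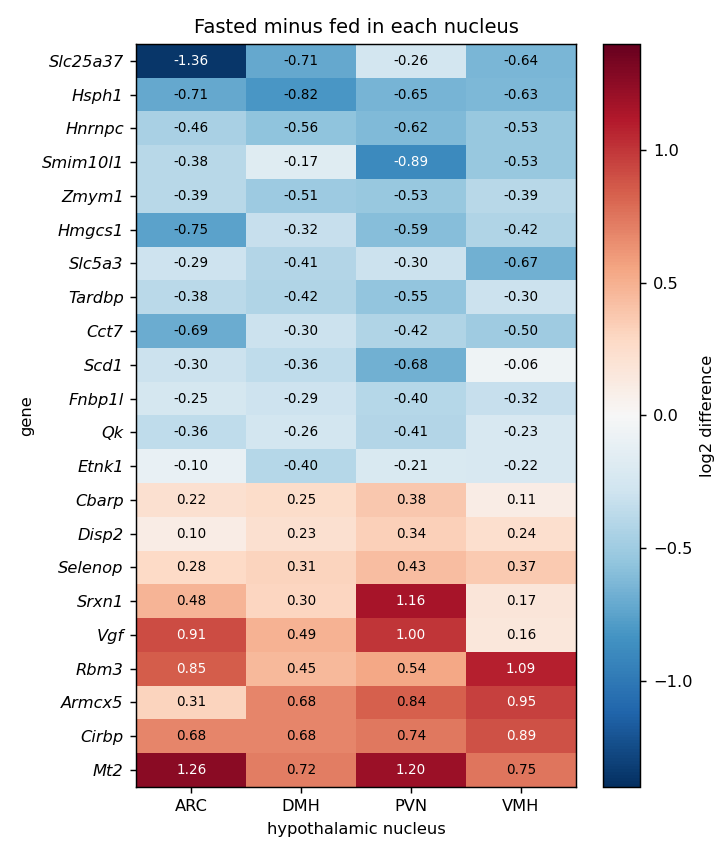
Log2 difference of fasted minus fed libraries (colour and printed value) of 22 genes (y axis) in each of 4 nuclei (x axis), from fits per nucleus with batch as a term. Each gene has 1 direction, which is part of how the genes were chosen; Hsph1 runs from -0.82 to -0.63 and Slc25a37 from -1.36 to -0.26.

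The 22 genes described in full, 9 higher and 13 lower, had equal directions and averaged 5 CPM or more in the state with the higher level. Gm17660, a predicted gene with equal directions, had 3.86 CPM in fasted and 0.852 CPM in fed libraries on average and a difference of 1.47 (SE 0.29, adjusted p = 0.0628). ENSMUSG00000082697, which the annotation used here did not pair with a symbol, passed over the nuclei (0.28, SE 0.06, adjusted p = 0.0672) but stood at -0.01 in the DMH, against 0.19 to 0.58 in the other nuclei. Batch 1 stood apart for this gene, with mouse values of 1.35 to 1.77 in both states, against -1.13 to -0.04 in the other mice. The threshold lay between Selenop and Rbm12b2 (-0.76), the tubulin gene Tuba1a (-0.34) and Kcnj10, a potassium channel gene of astrocytes (-0.37), each with an adjusted p of 0.104 and an equal direction in the 4 nuclei.

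In fits of single nuclei 5 of the 22 genes passed in the ARC (0.166% of all genes did), 1 in the DMH (0.0104%), 9 in the PVN (0.343%) and 2 in the VMH (0.0208%). Hsph1 passed in 4 nuclei, 9 genes passed in a single nucleus and 10 in none. Libraries of the states did not overlap for 6 of the 22 genes in the ARC (2.1% of all genes), 2 in the DMH (0.406%), 7 in the PVN (1.27%) and 4 in the VMH (0.479%). An unadjusted p under 0.05 in each of the 4 nuclei was found for 9 of the 24 called genes (0.156% of all genes). The genes were chosen on the mean of these libraries, so the shares are a description. When the libraries of a nucleus were left out of the mouse means, calls were lost for each nucleus. Leaving out the VMH also removed Fast-85 and leaving out the DMH removed Fed-92, which gave no other library, so the 4 fits differ in mice as well. Without the PVN 14 of the 24 genes missed the threshold (adjusted p of limma), namely Smim10l1, Fnbp1l, Srxn1, Vgf, Armcx5, Disp2, Scd1, Zmym1, Qk, Cbarp, Etnk1, Selenop, ENSMUSG00000082697 and Gm17660. Without the VMH 8 missed it (Slc5a3, Armcx5, Disp2, Zmym1, Rbm3, Etnk1, Selenop and Gm17660), without the ARC 7 (Slc25a37, Vgf, Scd1, Rbm3, Cbarp, ENSMUSG00000082697 and Gm17660) and without the DMH 6 (Fnbp1l, Zmym1, Qk, Cbarp, Etnk1 and ENSMUSG00000082697). Whether the response differed between nuclei was tested with an F-test of limma over the 41 libraries, with the mouse as a block: 0 of 9610 genes passed, 490 had an unadjusted p under 0.05 and the smallest adjusted p was 0.240. A p above the threshold does not show that the nuclei responded alike.

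In 22 of the 24 genes both fasted mice lay on 1 side of both fed mice, in the same direction, in all 3 batches, as did 2.8% of all genes tested. The exceptions were Mt2 and ENSMUSG00000082697. Over the 12 mice, 8 of the 24 genes had states that did not overlap (0.499% of all genes), namely Hsph1, Cirbp, Hmgcs1, Cct7, Srxn1, Scd1, Zmym1 and Gm17660. The exact permutation test of states within batches gave p = 0.00926, the smallest it can give, for 21 of the 22 genes described in full, and 0.0185 for Mt2. These are the mouse values on which the genes were chosen. Without batch as a term, Hsph1 was the 1 gene called. With any 1 mouse left out, Hsph1, Hnrnpc, Cirbp, Slc5a3, Hmgcs1 and Smim10l1 still passed. The other called genes missed the threshold in several of the 12 such fits: Tardbp in 4, Cct7 in 5, Fnbp1l in 6 and each of the rest in 7 to 10.

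**Figure D4:**
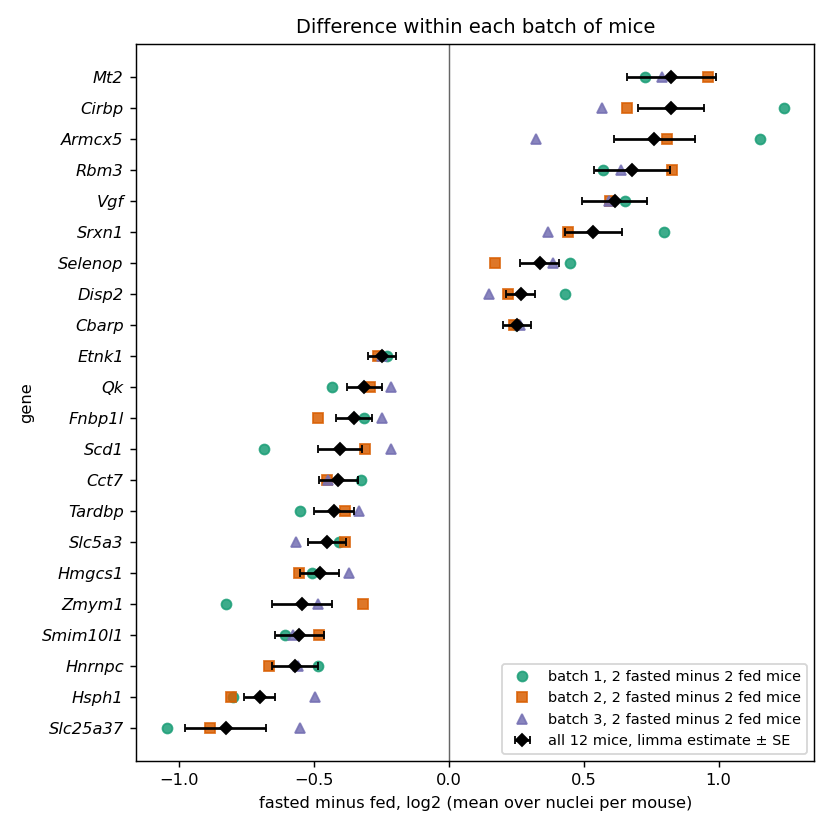
Fasted minus fed difference of mouse values on the log2 scale (x axis) of 22 genes (y axis). Coloured marks are the differences within each batch of 2 fasted and 2 fed mice, and black diamonds with bars are the estimate from all 12 mice ± SE; the 3 batches lie on 1 side of 0 for every gene shown.

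Of 16 gene lists with 199 tested genes, 9 lists had a member past the threshold, and 10 members passed in all, against 24 of 9610 genes (0.25%). Lists were tested in part, with 18 of 49 heat-shock, 16 of 35 cholesterol and 14 of 33 glucocorticoid genes. The endoplasmic reticulum list had 5 of 25 and the immediate early list 9 of 23. A list with 0 past the threshold is thus not shown to be unchanged. The lists were chosen with earlier results of these data known, so their counts describe the lists and test nothing. An unadjusted p under 0.05 was found for 913 of 9610 genes, the count to set beside those of the lists. In the 9 lists with a member past the threshold, that member included, it was found for 6 of 18 heat-shock and 2 of 6 TRiC and prefoldin genes. It was found for 2 of 3 cold-inducible, 6 of 16 cholesterol, 7 of 14 glucocorticoid and 3 of 15 fuel genes. For the feeding, osmotic and splicing lists the counts were 5 of 27, 1 of 2 and 6 of 24. In the insulin and FoxO list 0 of 18 passed (5 at an unadjusted p under 0.05), and the smallest p values were those of Trib1, a pseudokinase (0.83, adjusted p = 0.145), and the insulin receptor substrate Irs4 (-0.22, adjusted p = 0.238). Of 9 immediate early genes, the transcripts of recent neuronal activity, 0 passed (0 at an unadjusted p under 0.05), with Ier5 (-0.53, adjusted p = 0.539) and Nptx2 (0.32, adjusted p = 0.704) first. Of 12 circadian clock genes 0 passed (2 at an unadjusted p under 0.05), with Bhlhe40 (-0.64, adjusted p = 0.198) and Bhlhe41 (-0.24, adjusted p = 0.464) first. Of 15 autophagy and lysosome genes 0 passed (2 at an unadjusted p under 0.05), with Atg14 (0.33, adjusted p = 0.487) and Bnip3 (0.23, adjusted p = 0.522) first. Of 10 proteasome subunits 0 passed (1 at an unadjusted p under 0.05), with Psmb3 (0.31, adjusted p = 0.490) and Psmb2 (0.27, adjusted p = 0.560) first. Of 7 genes of thyroid hormone action 0 passed (1 at an unadjusted p under 0.05), with Klf9 (0.40, adjusted p = 0.359) and the transporter Slco1c1 (-0.36, adjusted p = 0.587) first.

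**Figure D5:**
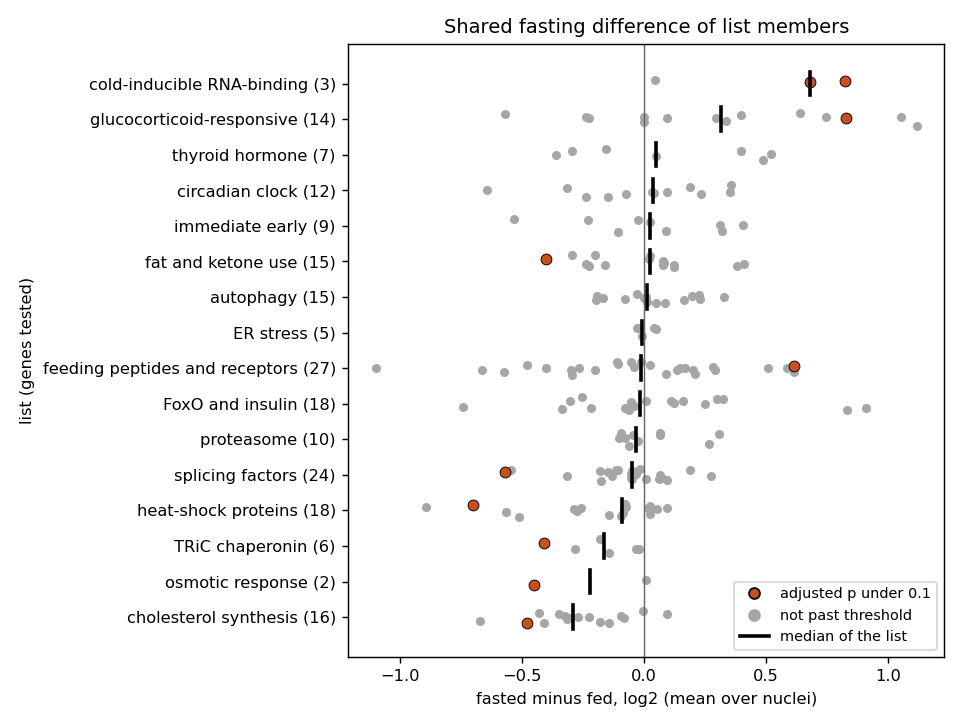
Fasted minus fed difference on the log2 scale (x axis) of the tested members of 16 gene lists (y axis, number tested in brackets). Orange points passed an adjusted p under 0.1, grey points did not, and black bars are list medians, from -0.29 for cholesterol synthesis to 0.68 for cold-inducible RNA-binding proteins.

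Mice with 1 library weigh as much in the comparison of mice as those with 4. In a limma fit of the 41 libraries with the mouse as a replicate block, a mouse counts by its libraries. In it 312 genes passed (3.25%), all 24 among them. The correlation of libraries of 1 mouse was -0.0027, so the block had almost no effect. Libraries of 1 mouse thus counted nearly as separate replicates. On simulated data this fit called 37 of 9210 unchanged genes, against 4 in the comparison of mice. The simulated libraries of a mouse were drawn independently, so these counts cannot show the cost of counting them as replicates. The comparison of mice recovered 39% of simulated 1.5-fold and 78% of 2-fold changes, against 67% and 89% in the fit of libraries. Genes that did not pass may thus have changed. With mice weighted by their libraries the comparison of mice gave 142 calls. In the fit of libraries the lists had 35 members past the threshold. Of these, 10 passed in the comparison of mice and the others did not. The values that follow count libraries of 1 mouse nearly as replicates and do not show a response over mice. In the heat-shock list 5 fell, Hsph1, Fkbp4 (-0.31, adjusted p = 0.00372), Hspa1a (-1.02, adjusted p = 0.0299), Ptges3 (-0.27, adjusted p = 0.0384) and Hspe1 (-0.33, adjusted p = 0.0517), and Cct6a (-0.29, adjusted p = 0.0278) fell beside Cct7. In the cholesterol list Idi1 (-0.54, adjusted p = 0.00290), Msmo1 (-0.38, adjusted p = 0.00615) and Insig1 (-0.47, adjusted p = 0.00827) fell beside Hmgcs1. In the glucocorticoid list 6 rose, Mt2, Mt1 (0.79, adjusted p = 2.84e-06), Zbtb16 (1.32, adjusted p = 0.00301), Sult1a1 (1.34, adjusted p = 0.00153), Klf9 (0.39, adjusted p = 0.0694) and Errfi1 (0.36, adjusted p = 0.0694). Ucp2 (0.40, adjusted p = 0.00446) and Pdk2 (0.49, adjusted p = 0.000203) of the fuel list and Trib1 (0.82, adjusted p = 0.0167), Txnip (0.97, adjusted p = 0.0166) and Foxo1 (0.32, adjusted p = 0.0905) of the insulin list rose, while Irs4 (-0.26, adjusted p = 0.00615) and Bhlhe40 (-0.63, adjusted p = 0.00452) fell. In the splicing list Tra2a (-0.40, adjusted p = 0.0205), Hnrnpm (-0.34, adjusted p = 0.0116) and Hnrnpu (-0.19, adjusted p = 0.0373) fell beside Hnrnpc, and Npy5r of the feeding list fell as well (-1.05, adjusted p = 0.0905). Without Fast-85 and Fed-92 the comparison of mice gave 176 calls, and without batch 1, an alternative chosen after seeing the data, 158, again with all 24 among them.

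Depth was 1.94 to 8.23 M reads per library, with a median of 3.68 M in fasted and 4.40 M in fed libraries, so that 1 CPM is about 4.11 reads at the median depth. With mean log2 depth per mouse as a covariate 71 genes passed, 21 of the 24 among them, and Mt2 (adjusted p = 0.109), Etnk1 (0.110) and ENSMUSG00000082697 (0.129) did not. Each labelled nucleus held a marker. The median CPM of Npy was 326 in the ARC and of Npvf 69.7 in the DMH. For Avp it was 692 in the PVN and for Fezf1 229.9 in the VMH. The medians of these 4 genes in the other nuclei were at most 7.37. Pmch, of the same marker list as Npvf, had 223 CPM in the DMH and 26.7 in the VMH. Of 55 tested markers of cell types and nuclei, 0 passed in limma, 4 had an unadjusted p under 0.05 and 1 passed in the fit of libraries, the endothelial receptor gene Flt1 (-0.33, adjusted p = 0.0938). Of 17 summed marker lists choroid plexus (Ttr and Kl, 2 of 4 measured) had the smallest p, with 6.12 to 59.3 CPM (median 21.8) in fasted and 3.53 to 45.9 CPM (median 17.0) in fed libraries (log2 difference 0.46, exact permutation p = 0.00926, adjusted over the lists 0.157). The glutamatergic marker Slc17a6 differed by -0.16 (exact permutation p = 0.0278, adjusted 0.236). The part of depth and of these cells in the differences above was not tested.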

How the data were processed

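By the labels and methods of the study, nuclei were laser-captured from frozen sections, and RNA was extracted with the miRNeasy micro kit and amplified with the Ovation RNA-Seq System V2. The submitters' processing notes name CASAVA 1.7, TopHat2 2.0.11, Cufflinks 2.2.1, edgeR and limma. The authors left out outlier libraries by multidimensional scaling, which can lower the spread between replicates. The read counter and its use of strand are not given in the sources used here. The authors deposited CPM per Ensembl gene. The table held 10127 genes, 9891 of them paired with a GENCODE symbol, and CPM summed to 554896 to 689010 per library. Identifiers between ENSMUSG00000000861 and ENSMUSG00000028747, Agrp, Pomc and Oxt among them, were not analysed here. Of the columns, 41 matched a sample and 2, named for ARC of mice 85 and 92, matched none and were not used, and 2 PVN samples of those mice were not analysed here.

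Depth was read from low values, of which 97.5% to 98.9% were whole multiples of 1 read (within 0.05 of a read). Some positive values lay far under 1 read, hence reads were not recovered and the count test was left out. Genes with a CPM of at least 1 in at least 20 libraries were kept. Log2(CPM + 0.5), which understates the change of low genes, was centred on the nucleus mean, averaged per mouse and fitted with limma 3.58.1 in R 4.3.3 (state and batch, eBayes with trend, 2-sided). Adjusted p is Benjamini-Hochberg over all genes tested, with a threshold of 0.1. Fits were tested on simulated data without an effect of the mouse. Mouse numbers pair libraries of different nuclei of 1 animal, by the labels, and the correlation of libraries of 1 mouse was -0.0027. Fasted and fed mice are different animals and were not paired.

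Genes described in full passed the threshold with equal signs in 4 nuclei and 5 CPM or more in the higher state, up to 15 per direction. List members past it were named, and for lists with none the 2 with the smallest p. Other list members and genes just outside the threshold were named after their values were seen. Genes, lists and tests were chosen with earlier results of these data known. Alternatives were other pseudocounts, filters, scalings, centring, weights, batch, depth and block terms, and leaving out each mouse or nucleus.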

Additional observations from a re-analysis of the deposited data

Results flagged for a closer look

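The 22 genes described in full were examined for a value far from the others of its group, measured by its gap to the nearest value over the range of the group. Over 44 groups of mouse values 0 were found. Over 176 groups of CPM in a nucleus and state, chance gives about 8.8 (1 in 20) and 25 were found, 17 of them from mice of batch 1: 10 from Fast-86, 6 from Fed-111 and 1 from Fast-85. The same libraries return for several genes, so these are not independent.

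Fast-86 stood apart in the PVN for Cirbp (36.49, others 71.4 to 81.5 CPM), Hmgcs1 (61.83, others 120.2 to 143), Tardbp (115.5, others 214 to 235), Vgf (382.7, others 74.1 to 132), Mt2 (324.8, others 35.1 to 73.0), Disp2 (1779, others 1131 to 1293) and Cbarp (764.4, others 304 to 429). It also stood apart in the DMH for Hsph1 (302.4, others 506 to 565 CPM) and Mt2 (211.4, others 59.0 to 89.8), and in the ARC for Srxn1 (151.4, others 82.9 to 90.7). The value of Cirbp lay on the side of the fed libraries.

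Fed-111 stood apart for Hnrnpc in the VMH (92.19, others 179.9 to 202 CPM), Fnbp1l in the ARC (210.6, others 384 to 415) and the VMH (254.2, others 390.0 to 417), Mt2 in the VMH (227.1, others 39.7 to 66.6), and Cbarp in the ARC (544.7, others 267 to 312) and the PVN (602.1, others 245 to 344). Fast-85 stood apart for Vgf in the VMH (59.55, others 20.1 to 30.8 CPM).

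In the other batches Fed-127 was high for Hsph1 in the ARC (1533, others 1084 to 1200.0 CPM) and the DMH (988.7, others 749 to 838). Fast-305 was low for Cct7 in the VMH (139.0, others 171 to 185 CPM) and high for Slc25a37 in the ARC (17.21, others 10.6 to 11.3). Fed-308 was high for Slc25a37 in the ARC (60.13, others 20.7 to 31.9 CPM) and low for Srxn1 in the VMH (60.86, others 73.7 to 76.5). Fed-313 was low for Slc25a37 in the VMH (30.10, others 48.0 to 54.6 CPM), and Fast-100 was high for Zmym1 in the ARC (63.71, others 44.7 to 47.7).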

How the results depend on the processing

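The number of genes called, 24, depended on how mice and batches entered. It was 1 without batch as a term, 312 and 257 in the fits of libraries with the mouse as a replicate block (nucleus and batch terms, or nucleus by batch means), 142 with mice weighted by their libraries, 176 without Fast-85 and Fed-92, 158 without batch 1, 71 with depth as a covariate, 11 without PVN and 37 without VMH libraries. List members past the threshold, 10, were 1 without batch as a term, 35 and 33 with the replicate block, 27 with weights, 28 without Fast-85 and Fed-92 and 21 without batch 1. Leaving out 1 mouse gave 6 (without Fast-100, Fed-125 or Fed-308) to 40 (without Fast-85) genes and 5 to 14 list members, and without Fast-86 it gave 8 genes, all among the 24. Other pseudocounts, filters, scalings, centring and robust variances gave 19 to 29 genes, but after quantile normalization 7 of the 24 were lost (Scd1, Zmym1, Qk, Rbm3, Etnk1, ENSMUSG00000082697 and Gm17660). The share of higher genes, 45.8%, was 56.8% without VMH and 27.3% without PVN. A single gene was higher without Fast-86 (1 of 8), Fast-100, Fed-125 or Fed-308 (1 of 6 each), or Fed-127 or Fast-311 (1 of 7 each), and 0 of 1 without batch as a term. Genes with equal direction in 4 nuclei numbered 1588 to 1983. The F-test between nuclei called 0 genes, also without the replicate block (491 at an unadjusted p under 0.05), and 0 to 2 with 1 mouse left out (Krt77 without Fast-101, Sv2c and Tubb3 without Fed-308).

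In 743 refits of the 24 called genes, 211 missed the threshold and 0 changed direction. Hsph1 passed in every one, and Hnrnpc, Cirbp and Hmgcs1 missed it only without batch as a term. The causes of these shifts were not tested. The planned count test was not run, since whole reads could not be recovered. The shallowest library, at 1.94 M reads, limits genes near 1 CPM.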
